A study of Homo sapiens with 8 samples.

Results

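The genes described here are 46 genes of mitotic entry, the spindle, the kinetochore and cytokinesis, the steps by which a cell separates its copied chromosomes and divides. They were listed by symbol, without a measured value in the rule, but with earlier results of these data known. Each symbol matched 1 of the 60483 gene identifiers in the count files, and all 46 were among the 13982 genes with enough reads to test, with at least 171 counts in every library. NB4 is a long-used cell line from acute promyelocytic leukemia, a disease driven by PML/RARα, in which the PML protein is joined to the retinoic acid receptor RARα. RNA was sequenced from 8 libraries in 4 groups of 2, and cells of every group carried lentivirus that depleted the endogenous fusion, for 72 h. The groups then differed in what was put back: nothing but empty vector, the full-length PML/RARα with an HA tag, or its HA-tagged F158E or ΔIDR mutant, both described in the labels as unable to undergo phase separation. No group kept the endogenous fusion without knock-down, the model is 1 cell line, and the labels do not give the share of cells that took up virus. The labels also leave unsaid whether paired libraries were grown as separate cultures, so p-values reflect spread among these 8 libraries alone, and that spread may be technical.

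Libraries held 16779364 to 21965389 gene counts. Promyelocyte genes (MPO, AZU1, PRTN3, CD33, CTSG and SRGN) summed to 5977 to 11142 CPM, the unit of library-scaled counts used throughout, and all 6 were tested. Their mean summed level was 5992 CPM in full-length cells, 8625 in empty vector cells, 8307 in F158E cells and 11140 in ΔIDR cells. SRGN, at 4369, 2215, 3864 and 6403 CPM with empty vector, full-length, F158E and ΔIDR, and MPO carried most of this sum. Against empty vector, 5 of the 6 genes were lower in full-length cells, beside 24.3% of all tested genes, and CD33 did not pass. In F158E cells AZU1, PRTN3 and SRGN were lower, by log2 values of -0.28 ± 0.07, -0.32 ± 0.04 and -0.18 ± 0.02. MPO was higher there, at 0.09 ± 0.02, and CD33 and CTSG did not pass, beside 4.67% lower and 3.97% higher over all tested genes. In ΔIDR cells 4 were higher, CD33 was lower by a log2 value of -0.22 ± 0.07, and CTSG did not pass. Over all tested genes 5.02% were higher and 5.27% lower with ΔIDR. Markers of other cells were low: 4 erythroid genes summed to 0 to 0.275 CPM, with 2 of them at 0 in every library, 6 lymphoid genes to 26.3 to 47.9, with 1 at 0, and 4 epithelial or fibroblast genes to 6.47 to 15.1, with 1 at 0. Among these, NKG7 was lower in full-length than in empty vector cells, at -0.48 ± 0.11, and EPCAM higher, at 0.75 ± 0.20. The part of these differences in the results below was not tested. In RNA from whole cultures, fewer cells in mitosis and less RNA of these genes in each cell cannot be told apart.

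Entry into mitosis is driven by the kinase CDK1 bound to cyclin B, which the CDC25 phosphatases switch on and the PLK1 and Aurora kinases assist. The kinetochore then ties each chromosome to spindle microtubules, and the spindle checkpoint holds the anaphase-promoting complex, a ubiquitin ligase known as APC/C, until all chromosomes are attached. Once released, APC/C marks cyclin B and securin for destruction, and separase cuts the link between sister chromatids. Anillin, ECT2 and PRC1 help to build the cleavage furrow and the central spindle. Transcripts of most of these genes are low after division and climb through S and G2 phase. Their promoters are known for a short element, the cell cycle genes homology region or CHR, which binds the MuvB core of the DREAM repressor and of the MYBL2 and FOXM1 activators, and for CCAAT boxes, which bind NF-Y.

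The letters of these elements are shown for a few chosen members. PRC1 and ANLN had the lowest log2 values with full-length PML/RARα. The motor gene KIF11, the separase gene ESPL1 and the proliferation marker gene MKI67 also fell, and NCAPH rose. Sequences are from RefSeq promoter windows of GRCh38.p14, which run from 250 bases before to 50 bases after a start site. Each is the reference strand of the gene, 5′ to 3′, and ends at the base before the start site, with TTTGAA (the CHR letters) and CCAAT in capitals wherever they occur on either strand, so that TTCAAA and ATTGG are the same motifs read on the other strand. For PRC1 and ANLN 30 bases are printed, and for the others 120.
PRC1, chr15:90994536-90994565, minus strand: cgtggcgcggTTTGAAattttgcggggctc
ANLN, chr7:36389832-36389861, plus strand: gaaaTTCAAATTTGAAcggctgcagaggcc
KIF11, chr10:92593010-92593129, plus strand: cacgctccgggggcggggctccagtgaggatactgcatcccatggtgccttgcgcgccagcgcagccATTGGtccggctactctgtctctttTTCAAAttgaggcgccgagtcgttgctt
ESPL1, chr12:53268179-53268298, plus strand: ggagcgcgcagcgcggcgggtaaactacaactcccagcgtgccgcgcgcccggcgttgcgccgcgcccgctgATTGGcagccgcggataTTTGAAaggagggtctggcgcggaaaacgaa
MKI67, chr10:128126424-128126543, minus strand: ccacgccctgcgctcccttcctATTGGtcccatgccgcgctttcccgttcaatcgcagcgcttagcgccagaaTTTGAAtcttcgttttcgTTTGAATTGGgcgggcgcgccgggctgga
NCAPH, chr2:96335646-96335765, plus strand: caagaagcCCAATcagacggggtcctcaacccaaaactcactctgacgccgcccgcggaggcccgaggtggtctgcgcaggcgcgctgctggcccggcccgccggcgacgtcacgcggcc

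In the printed stretches of KIF11 and ESPL1 a CCAAT box stood upstream of a single CHR match, ANLN had 2 adjoining CHR matches on opposite strands, and MKI67 had 2 CHR matches. The stretch before NCAPH held a CCAAT box and no CHR letters. The printed genes do not represent the list. KIF20A, BUB1, CENPE and CCNB1 fell without CHR letters in a window, and CDC20 had them and did not pass. Of the 46 members, 39 had a window in the RefSeq table, some of them for several start sites. TTTGAA was present in at least 1 window of 28 of these 39 genes (71.8%), against 18.2% of all 27303 genes with a window and 13.9% of the 10044 tested ones. CCAAT was present in 30 of 39 (76.9%), against 39.7% and 43.1%, and both motifs in 21 of 39 (53.8%), against 8.37% and 7.38%. Per window of 300 bases, 15.2% of all windows held TTTGAA and 34.6% CCAAT. A match is a description of letters and was not shown to be a bound site. Only the exact letters TTTGAA were searched for the CHR, so a gene without them may still hold a variant of the element. AURKA, FOXM1, BUB3, TTK, UBE2C, TPX2 and BIRC5 had no entry.

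Most mitosis genes were lower in full-length cells than in empty vector cells. Of 46 members, edgeR called 36 lower and 3 higher at a Benjamini-Hochberg adjusted p under 0.05, and 7 did not pass. Among all 13982 tested genes 24.3% were called lower and 24.2% higher in this comparison. The members' median log2 fold change was -0.36, a change of -22.2%, beside a median of 0.00 over all tested genes. Single values ran from -1.10 for PRC1 to 0.67 for CDC25B. Both full-length libraries lay below all 6 other libraries in 34 members (73.9%), as in 24.9% of all tested genes, and above all 6 in 4 members, as in 25.6% of all tested genes. The full-length mean was the lowest of the 4 group means in 37 members and the highest in 5. The shares of all tested genes with these orders of means were not counted.

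**Figure D1:**
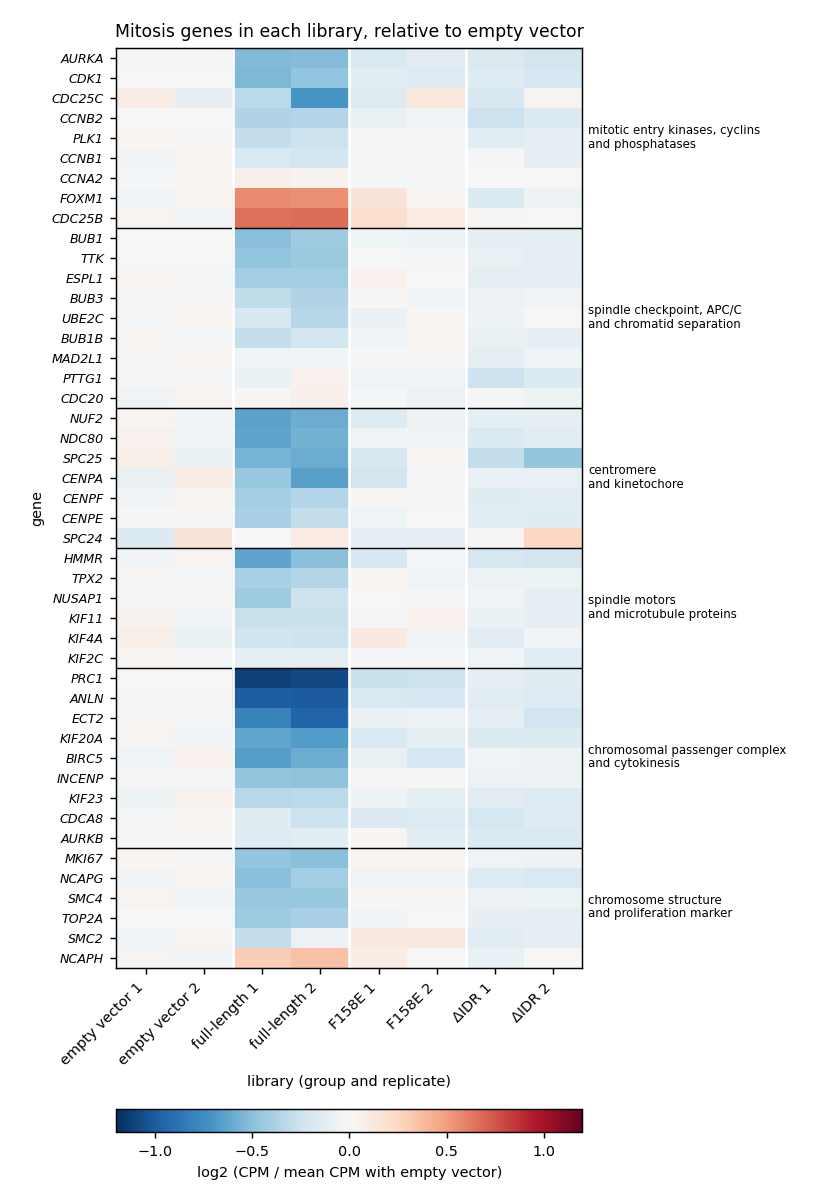
Each row is a mitosis gene and each column a library, and the colour gives the log2 ratio of its CPM to the mean CPM with empty vector, with genes grouped by role and sorted by the change with full-length PML/RARα. The 2 full-length columns are blue in most rows, darkest in PRC1, ANLN and ECT2, and red in FOXM1, CDC25B and NCAPH.

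Genes that trigger mitotic entry split in direction. CDK1, the kinase that drives mitosis, was at 366 and 371 CPM in empty vector cells, 253 and 266 in full-length cells, 336 and 331 in F158E cells, and 332 and 319.8 in ΔIDR cells. Both full-length libraries were the lowest, and the fall was 0.51 ± 0.03 on the log2 scale (SE, here and below, n = 2 libraries a group; adjusted p = 4.72e-23, edgeR). AURKA, an Aurora kinase of centrosomes and spindle poles, was at 209 and 205, then 143 and 144, 183 and 189, and 183 and 178 CPM in the same order of groups, which is kept below. It fell by 0.53 ± 0.04, and its mutant libraries lay between the full-length and empty vector ones. PLK1, the Polo-like kinase of entry and spindle assembly, was at 379 and 369, 306 and 313, 369.5 and 368, and 341 and 346 CPM, a fall of 0.27 ± 0.03. CCNB1, cyclin B1, was at 314 and 329, 284 and 273, 315 and 316, and 319 and 296 CPM, and fell by 0.21 ± 0.04. Its relative CCNB2 was at 219 and 217, 170.1 and 171, 205 and 212, and 182 and 194 CPM, and fell by 0.35 ± 0.04. In both cyclin B genes the full-length libraries overlapped no other group. CDC25C, a phosphatase that activates CDK1, had 9.97 to 17.9 CPM in all libraries, fell by 0.50 ± 0.16, and did not pass without empty vector replicate 1 or without full-length replicate 2.

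The phosphatase gene CDC25B and the transcription factor gene FOXM1 went the other way. CDC25B, which activates CDK1 at the centrosome, was at 68.1 and 64.7, 105 and 106, 77.0 and 71.1, and 67.2 and 66.1 CPM. It rose by 0.67 ± 0.06 (adjusted p = 1.64e-15), and no other group reached its full-length level. FOXM1, an activator of G2 and mitosis genes, was at 123 and 129, 187 and 183, 140.1 and 128, and 111 and 120.3 CPM, and rose by 0.56 ± 0.05 (adjusted p = 4.24e-17). FOXM1 thus rose in the comparison in which 36 other members fell. CCNA2, cyclin A2 of S phase and early mitosis, was at 310.2 and 315, 325 and 322, 309 and 309, and 312 and 312 CPM. Its change of 0.05 ± 0.03 did not pass, although both full-length libraries were the highest of the 8.

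Among spindle checkpoint genes, the kinases fell most. BUB1, a checkpoint kinase of the kinetochore, was at 296 and 293, 207 and 218, 284 and 282, and 271 and 273 CPM, and fell by 0.47 ± 0.04 (adjusted p = 1.93e-19). TTK, the kinase that starts checkpoint signalling, was at 122 and 124, 88.3 and 90.2, 123 and 122, and 116 and 113 CPM, a fall of 0.46 ± 0.05. BUB3, which carries BUB1 to kinetochores, was at 374 and 383, 307 and 294, 382 and 370.4, and 360.1 and 368 CPM, a fall of 0.33 ± 0.03. In all 3 genes the full-length libraries stood below every other library, and BUB1B, the kinase-like subunit of the checkpoint complex, did the same with a fall of 0.26 ± 0.04. MAD2L1, the checkpoint protein that captures CDC20, was at 189 and 196, 186 and 188, 191 and 191, and 178 and 186 CPM and did not pass, at -0.04 ± 0.04. CDC20, the APC/C activator itself, was at 189 and 199, 196 and 202, 193 and 186, and 191 and 187 CPM and did not pass, at 0.04 ± 0.04. For both genes the groups overlapped.

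Genes that act when APC/C is released were mixed. ESPL1, separase, fell by 0.42 ± 0.05, from 131 and 126 CPM to 96.5 and 95.8. UBE2C, the ubiquitin-conjugating enzyme of APC/C, was at 50.4 and 51.9, 44.7 and 40.5, 48.4 and 52.0, and 48.9 and 50.9 CPM, and fell by 0.26 ± 0.08, a call lost without full-length replicate 2. PTTG1, securin, the inhibitor of separase, was at 86.9 and 84.9, 81.3 and 89.3, 83.0 and 83.5, and 72.4 and 76.5 CPM. Its value of -0.01 ± 0.06 did not pass in this comparison, and the ΔIDR libraries were its lowest.

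Of 7 centromere and kinetochore genes, 6 fell and none rose, beside 24.3% and 24.2% of all tested genes. Their median log2 change was -0.55. NDC80 and NUF2, partners in the complex that grips microtubules, fell by 0.60 ± 0.07 and 0.62 ± 0.07. NDC80 was at 80.7 and 75.1, 50.1 and 52.6, 75.2 and 75.7, and 69.0 and 71.5 CPM. NUF2 was at 83.6 and 80.2, 52.5 and 54.2, 73.5 and 78.5, and 75.8 and 75.6 CPM. SPC25, of the same complex, was at 26.7 and 24.1, 17.3 and 16.9, 22.2 and 26.0, and 20.9 and 18.5 CPM, a fall of 0.57 ± 0.13. The full-length libraries were the lowest in all 3 genes, while SPC24, the remaining subunit, had 14.2 to 19.0 CPM over the libraries and did not pass, at 0.05 ± 0.15. CENPA, the histone variant that marks centromeres, was at 41.8 and 47.3, 32.5 and 28.4, 38.2 and 44.2, and 42.0 and 41.8 CPM, a fall of 0.55 ± 0.10. CENPF, a large kinetochore protein made in G2, was at 503 and 525, 387 and 403, 523 and 520.5, and 465 and 472 CPM, a fall of 0.38 ± 0.03. CENPE, the kinetochore motor, fell by 0.34 ± 0.04, and none of these 3 genes overlapped between full-length and other libraries.

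Spindle motor and microtubule genes fell in 5 of 6 cases, beside 24.3% of all tested genes, by a median of 0.30 over the 6. KIF11, the motor that pushes spindle poles apart, was at 451 and 425, 363 and 363, 432 and 455, and 415 and 407 CPM, a fall of 0.27 ± 0.03. TPX2, which activates Aurora A on the spindle, was at 429 and 422, 325 and 333, 431 and 411, and 406 and 408 CPM, a fall of 0.37 ± 0.03. HMMR, a spindle protein, was at 125 and 131, 82.7 and 90.7, 112 and 126, and 111 and 110.2 CPM, a fall of 0.57 ± 0.06. In these genes the full-length libraries were the lowest. NUSAP1 and KIF4A, a microtubule bundler and a chromosome motor, fell by 0.34 ± 0.04 and 0.25 ± 0.05, and KIF2C, a microtubule depolymerase, did not pass, at -0.11 ± 0.05.

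The lowest values were those of cytokinesis genes. PRC1, which bundles the central spindle, was at 375 and 377 CPM in empty vector cells, 173 and 177 in full-length cells, 313 and 314 in F158E cells, and 351 and 341 in ΔIDR cells. Full-length cells held 2.15-fold less PRC1 RNA, a log2 change of -1.10 ± 0.04 (adjusted p = 1.69e-44). ANLN, anillin, the scaffold of the contractile ring, was at 433 and 441, 219.6 and 218, 385 and 381, and 398 and 394 CPM, 1.99-fold lower in full-length cells. ECT2, the exchange factor that activates RhoA at the furrow, was at 217 and 214, 124 and 110.5, 204 and 206, and 199 and 184 CPM, 1.84-fold lower. In these 3 genes the full-length libraries lay under all others, and the mutant libraries lay between full-length and empty vector. KIF20A and KIF23, motors of the central spindle, fell by 0.64 ± 0.05 and 0.33 ± 0.05. Of the 13 members that fell by more than 0.5 on the log2 scale, 5 were among the 9 cytokinesis and chromosomal passenger genes. Another 4 were among the 7 kinetochore genes, 3 among the 9 entry genes and 1 among the 6 spindle genes. The share of all tested genes past this cut was not counted.

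The chromosomal passenger complex, which corrects faulty attachments and guides cytokinesis, was called lower in 3 of its 4 subunit genes, beside 24.3% of all tested genes. BIRC5, survivin, was at 169 and 181, 110.5 and 115, 165 and 151, and 169.8 and 167 CPM, a fall of 0.63 ± 0.05 (adjusted p = 3.52e-20). INCENP, its scaffold, was at 184 and 180.2, 132 and 131, 184 and 184, and 174 and 174 CPM, a fall of 0.47 ± 0.04. AURKB, its kinase, was at 48.3 and 49.0, 43.7 and 44.6, 49.5 and 44.4, and 43.1 and 43.0 CPM and did not pass, at -0.14 ± 0.08. CDCA8, borealin, was at 127 and 131, 117 and 108, 115 and 116, and 112 and 116 CPM. It fell by 0.20 ± 0.05, a call lost without full-length replicate 2, and its full-length libraries overlapped both mutants.

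Of the chromosome structure genes and the proliferation marker, 5 fell and 1 rose, beside 24.3% and 24.2% of all tested genes. MKI67, the gene of the Ki-67 antigen that coats mitotic chromosomes, was at 1249.8 and 1216.5, 895 and 871, 1258 and 1249.9, and 1198 and 1181 CPM, a fall of 0.48 ± 0.02 (adjusted p = 1.47e-32). TOP2A, the topoisomerase that untangles sister DNA, was at 932 and 941, 698 and 716, 915 and 934, and 876 and 866 CPM, a fall of 0.41 ± 0.02. SMC4, a core condensin subunit, was at 436 and 414, 309.8 and 311, 429.6 and 430.3, and 404 and 408 CPM, a fall of 0.45 ± 0.03. Each of these had its lowest level in the full-length libraries. NCAPG, a condensin subunit, fell by 0.46 ± 0.04, and SMC2, the partner of SMC4, by 0.18 ± 0.05, a call lost without full-length replicate 1. NCAPH, the subunit that closes the condensin ring, was at 116 and 111, 139 and 144, 121 and 114, and 107 and 113 CPM, and rose by 0.32 ± 0.05. Transcripts of condensin subunits thus changed in opposite directions in the same libraries.

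Both mutants differed from full-length PML/RARα in the reverse direction. These comparisons share the full-length libraries with the one above, so their values are given side by side and not as separate evidence. With F158E, 35 members were higher and 3 lower than with full-length PML/RARα, beside 22.1% and 21.7% of all tested genes, and the members' median log2 difference was 0.34. With ΔIDR, 33 were higher and 4 lower, beside 24.9% in each direction over all genes, and the median was 0.25. Against a fold change of 1.2, 23 members were higher with F158E and 14 with ΔIDR. Of the 36 members that fell with full-length PML/RARα, 33 were higher in both mutants, and SPC25, CDCA8 and SMC2 were not. How many of all tested genes showed this joint pattern was not counted, so it is not read as particular to mitosis genes. PRC1 was higher by 0.84 ± 0.04 with F158E and by 0.98 ± 0.04 with ΔIDR, ANLN by 0.81 ± 0.03 and 0.85 ± 0.03, and ECT2 by 0.81 ± 0.05 and 0.71 ± 0.05. CDC25B was lower by log2 values of -0.51 ± 0.06 and -0.66 ± 0.06, FOXM1 by -0.47 ± 0.05 and -0.67 ± 0.05, and NCAPH by -0.28 ± 0.05 and -0.37 ± 0.05. PTTG1 was lower with ΔIDR, at -0.19 ± 0.06, a call lost without full-length replicate 2 or ΔIDR replicate 1. Counts over the whole PML and RARA genes, which do not separate the fusion from the normal genes, also differed between groups. RARA stood at 23.1, 77.0, 32.3 and 1358 CPM and PML at 51.9, 124, 65.9 and 442 CPM, in the same order of groups. Both were lower with F158E and higher with ΔIDR than in full-length cells. With F158E both were nearer to their empty vector level than to their full-length level. The part of these levels in the results was not tested, and in this design it cannot be told apart from that of the mutations.

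Against empty vector the mutants differed by small amounts, mostly downward. With F158E, 35 of the 46 values were below 0, with a median log2 difference of -0.03. Called lower were 7 members (15.2%) and higher 0, beside 4.67% and 3.97% of all tested genes. These 7 were CDK1, AURKA, BIRC5, CDCA8, KIF20A, PRC1 and ANLN, and PRC1 had the lowest value, -0.26 ± 0.03. The count was 4 without any 1 of the empty vector or F158E libraries. With ΔIDR, 44 of the 46 values were below 0, with a median of -0.11. Called lower were 19 members (41.3%) and higher 0, beside 5.27% and 5.02% of all genes. SPC25 had the lowest value, -0.37 ± 0.13, followed by CCNB2 at -0.21 ± 0.04 and HMMR at -0.21 ± 0.06. That count was 9 and 7 without empty vector replicate 1 and 2, and 11 and 9 without ΔIDR replicate 1 and 2. In both comparisons CDK1, AURKA, CDCA8, KIF20A, PRC1 and ANLN were lower. Both share the empty vector libraries, so these calls are not separate evidence. The share of all tested genes lower in both was not counted. None of the 46 differences from empty vector passed a test against a fold change of 1.2 for either mutant.

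The mutants were also compared with each other. ΔIDR was lower than F158E in 10 members and higher in 1, beside 9.33% and 9.21% of all tested genes, with a median log2 difference of -0.08. The lower ones were CCNB2, PLK1, FOXM1, CENPE, CENPF, KIF11, TOP2A, SMC2, NCAPG and MKI67, with SMC2 at -0.22 ± 0.05 and FOXM1 at -0.21 ± 0.05. PRC1 was the 1 higher gene, at 0.14 ± 0.03 (adjusted p = 0.00116). Without F158E replicate 2 or ΔIDR replicate 2 the count of lower genes was 4, and without F158E replicate 1 the count of higher genes was 2. None of the 46 differences passed the test against a fold change of 1.2.

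Summed over the list, mitosis transcripts made up 11279 and 11269 CPM in empty vector cells, 8679 and 8792 in full-length cells, 11021 and 11004 in F158E cells, and 10529 and 10475 in ΔIDR cells. Long and abundant genes such as MKI67 and TOP2A weigh most in such a sum. The difference from empty vector was -22.5% for the full-length sum, -2.32% for the F158E sum and -6.85% for the ΔIDR sum. By role, the full-length difference was -39.5% for cytokinesis and passenger genes, -24.7% for kinetochore genes, -24.0% for chromosome structure genes, -19.5% for spindle genes, -16.2% for checkpoint and APC/C genes and -11.1% for entry genes.

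Genes of replication went the opposite way in the same libraries. Of 42 genes of S phase, the DNA replication stage before mitosis, 28 were higher (66.7%) and 2 lower (4.76%) in full-length than empty vector cells. Over all tested genes 24.2% were higher and 24.3% lower, and the list's median log2 change was 0.24. MCM3 and MCM4, subunits of the replicative helicase, rose by 0.81 ± 0.03 and 0.51 ± 0.03, and RRM2 and TYMS, enzymes of nucleotide supply, fell by 0.47 ± 0.03 and 0.31 ± 0.04. The list summed to 6203 and 6287, 7161.8 and 7191.5, 6426 and 6442, and 6148.5 and 6141.5 CPM. The ratio of the mitosis sum to the S phase sum was 1.82 and 1.79 in empty vector cells, 1.21 and 1.22 in full-length cells, 1.71 and 1.71 in F158E cells, and 1.71 and 1.71 in ΔIDR cells. Full-length libraries were the lowest in this ratio, and the mutants overlapped each other below empty vector. Against full-length cells, F158E cells had 23 S phase genes lower and 3 higher, beside 21.7% and 22.1% of all tested genes. ΔIDR cells had 31 lower and 3 higher, beside 24.9% in each direction.

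A further list of 72 genes of mitosis, of which 71 were tested, showed the same majority with more exceptions. With full-length PML/RARα 39 fell (54.9%) and 12 rose (16.9%), beside 24.3% and 24.2% of all tested genes. The median of the list was -0.23, and 20 did not pass. DEPDC1, a gene expressed around mitosis, fell from 202 and 215 CPM to 89.4 and 87.2, a log2 change of -1.24 ± 0.05, and ASPM, a spindle pole protein, fell by 0.81 ± 0.04. TACC3, a spindle protein that stabilises microtubules, rose from 133 ± 4.85 (SD) to 329 ± 11.0 CPM, by 1.31 ± 0.04, and was at 146 ± 1.72 with F158E and 131 ± 1.15 with ΔIDR. Its F158E level was still higher than with empty vector, by 0.13 ± 0.04 (adjusted p = 0.0419). ZWILCH, a checkpoint protein of the outer kinetochore, rose by 0.64 ± 0.06. F158E had 40 of these genes higher and 10 lower than full-length PML/RARα, beside 22.1% and 21.7% of all tested genes. ΔIDR had 34 higher and 14 lower, beside 24.9% in each direction.

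Of 22 tested regulators of the DREAM, MuvB and E2F group, 8 rose (36.4%), 6 fell (27.3%) and 8 did not pass with full-length PML/RARα, with a median of -0.02. Over all tested genes 24.2% rose and 24.3% fell, so these counts are read as no result about the group. E2F4, a repressive E2F of DREAM, rose by 0.55 ± 0.05, as did RB1, the retinoblastoma protein gene, by 0.55 ± 0.05. MYBL2, the activating partner of MuvB, rose by 0.39 ± 0.04, E2F3, an activating E2F, fell by 0.64 ± 0.04, and DYRK1A, the kinase that promotes DREAM assembly, fell by 0.46 ± 0.06.

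Members were also set beside the promoter letters printed above. Of the 28 members with TTTGAA in a window, 26 fell, 0 rose and 2, CDC20 and MAD2L1, did not pass with full-length PML/RARα, with a median log2 change of -0.43. Of the 11 members without it, 4 fell (CCNB1, BUB1, CENPE and KIF20A), 2 rose (CDC25B and NCAPH) and 5 did not pass, with a median of -0.11. Over all tested genes 24.3% were called lower and 24.2% higher. Calls among all tested genes with or without TTTGAA were not counted, so the counts are not read as tied to these letters. Against full-length PML/RARα the medians were 0.41 and 0.08 with F158E and 0.29 and 0.01 with ΔIDR, for members with and without the letters. For CCAAT, the medians with full-length PML/RARα were -0.35 for the 30 members with it and -0.45 for the 9 without it. No test was made of these splits, which were drawn after the values had been seen. Members without TTTGAA are not shown to lack the CHR element. The windows cover the RefSeq start sites, not those used in NB4 cells.

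**Figure D2:**
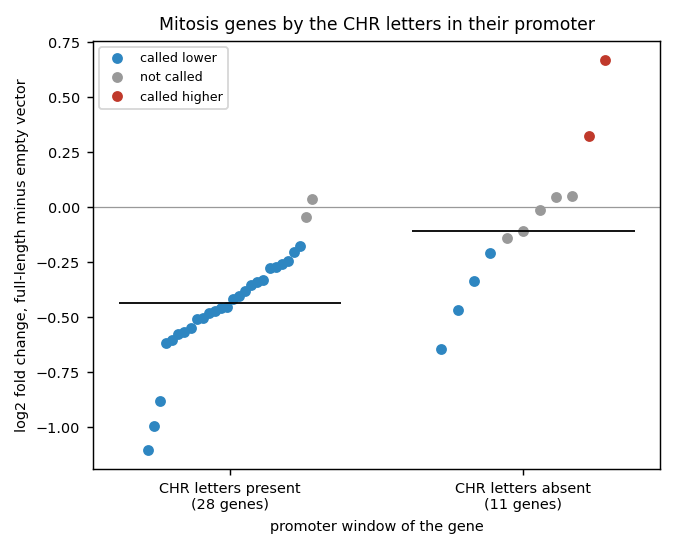
Each point is a member with a RefSeq window, placed by its log2 fold change between full-length PML/RARα and empty vector, and black lines are medians. The 28 genes with the exact letters TTTGAA centre on -0.43 with no gene called higher. The 11 without these letters, which may hold variants, centre on -0.11 and include both called rises.

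Counting bears on some of these values. Exons of 19 of the 46 members overlap exons of another gene in GENCODE 29, among them PRC1 with PRC1-AS1, ANLN with KIAA0895 and FOXM1 with ITFG2. The library kit named in the labels does not mark strand, so reads of such pairs cannot be told apart in the overlap. Pseudogenes named after a member exist for 9 members, including AURKA, UBE2C, BUB3 and MKI67, and reads shared with such copies may be split or lost.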

How the data were processed

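The authors deposited a file of raw gene counts for each of 8 libraries. The submitters' processing notes name builds hg38 and GRCh38. The aligner, counter and annotation release are not given in the sources used here. Lines for reads not assigned to a gene, 11.3% to 12.1% of each file, were left out. Symbols came from a table of gene names (56321 of 60483 identifiers matched), and exon overlaps from GENCODE 29.

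The members and lists were chosen with earlier results of these data known. Tests used edgeR 4.0.16 in R 4.3.3, quasi-likelihood with robust moderation over all 8 libraries, TMM factors of 0.989 to 1.01 and the filterByExpr rule, with Benjamini-Hochberg adjustment over 13982 genes. CPM used the same factors. The square root of the common dispersion was 0.0486, and the fit was tested on simulated data. Replicate libraries differed by more than counting error (chi-square per degree of freedom 2.93 to 3.56). Deviations of same-numbered libraries correlated at -0.0163 to 0.0206, so no block was used.

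Named genes: all members, a fixed panel, and in each related list the 2 smallest adjusted p in each direction. Alternatives were DESeq2 1.42.0, 3 other scalings, 2 filters, fewer groups, a block, a test against a fold of 1.2, and each library left out.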

Additional observations from a re-analysis of the deposited data

How the results depend on the processing

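Against empty vector, 36 or 37 members were lower with full-length PML/RARα under the other scalings, filters, fits and tests, 33 to 36 with 1 library left out, and 26 in a test against a fold change of 1.2. Members higher there numbered 3, or 2 against a fold of 1.2, and 3 with each library left out. Against a fold change of 1.2 the count fell from 35 to 23 for members higher with F158E than with full-length PML/RARα, from 33 to 14 for ΔIDR, and to 0 for members lower with F158E or ΔIDR than with empty vector and for members lower or higher with ΔIDR than with F158E. Fewer genes can pass a test against a larger size by its construction. Without a filter on low counts, 4 members in place of 7 were lower with F158E than with empty vector, and the cause was not tested. With 1 library left out, the ranges were 33 to 35 higher and 3 to 3 lower for F158E against full-length PML/RARα, 29 to 33 higher and 3 to 4 lower for ΔIDR, 4 to 7 lower for F158E and 7 to 18 for ΔIDR against empty vector, and 4 to 10 lower and 1 to 2 higher for ΔIDR against F158E. In those fits a lone library was assumed to vary like the other groups. The replicate block left all of these counts as they were, with 36 lower and 3 higher in full-length cells and 19 lower with ΔIDR than with empty vector. Dropping robust moderation, an alternative added after seeing the data, also left them as they were. Of 4968 member values under alternatives, 4756 kept their direction and side of the threshold, 195 no longer passed, 17 newly passed and 0 that passed changed sign. Values that passed under neither setting could change sign. Spread between replicate libraries exceeded counting error, so the number of libraries, 2 a group, limits precision as well as depth.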

Other observations

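Of 18 APC/C subunits and regulators, 7 rose, 4 fell and 7 did not pass in full-length cells against empty vector cells, with a median log2 change of 0.06, beside 24.2% called higher and 24.3% lower over all tested genes. The subunit gene CDC16 rose by 0.59 ± 0.06 and UBE2S, a ubiquitin-conjugating enzyme of the complex, by 0.36 ± 0.04, while the subunit genes CDC27 and ANAPC13 fell by 0.67 ± 0.04 and 0.44 ± 0.06. Of 12 cohesin genes, which hold sister chromatids together until separase acts, 3 rose (25%) and 6 fell (50%), with a median of -0.08. Beside the same shares of all tested genes, these counts in a short list are read as no result about the group. PDS5A and PDS5B, related cohesin regulators, differed in direction, at 0.40 ± 0.03 and -0.26 ± 0.05.

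Of 20 tested genes of G1 cyclins, their kinases and CDK inhibitors, 8 rose (40%) and 7 fell (35%), with a median of 0.09. Over all tested genes 24.2% rose and 24.3% fell, so these counts are read as no result about the group. CDKN1B, the CDK inhibitor p27, fell by 1.08 ± 0.07, to 39.2 CPM in full-length cells from 83.1 CPM in empty vector cells. SKP2, the ubiquitin ligase subunit that targets p27, rose by 0.35 ± 0.04, and CCND1, cyclin D1, fell by 0.79 ± 0.07.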
